A study of Drosophila melanogaster with 13 samples.

Results

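Testes of Drosophila melanogaster males mutant for sa (2 arrays) were compared with control testes (4 arrays), 6 of the 13 arrays of a study of 5 testis genotypes. The samples were chosen by their labelled genotype. The sa males carried the chromosome th sa[1] red over the chromosome ru h sa[2] ca, with an unmarked X over the Y. The control males carried w[1118] on the X and the deficiency Df(2R)BSC802 over an unmarked second chromosome. The deficiency and the w allele were therefore present in control and absent from sa, and the chromosome 3 markers were present in sa alone. The effects of these differences and of the sa alleles cannot be told apart. The other genotypes were aly (2 arrays; aly[2] red e over aly[5] red e, with a marked w on the X), topi (2 arrays; topi[Z3-0707] over topi[Z3-2139], with bw) and dany (3 arrays; dany[ex11] over the same deficiency as control). Each array held Cy3-labelled total RNA from 80 pooled testes of males aged 0 to 2 days, kept at 25 °C, and the labels call the replicates biological.

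The gene sa (spermatocyte arrest) encodes a testis-specific counterpart of TAF8, a subunit of the general transcription factor TFIID. Testis TAFs are made in primary spermatocytes, where they are needed to switch on genes used later in meiosis and in building the sperm. Testes that lack one fill with mature primary spermatocytes and hold no spermatids. The genes aly and topi encode subunits of the testis meiotic arrest complex (tMAC), which acts in the same cells, and their loss gives a similar arrest.

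Levels are log2 signals from which the array's own 75th percentile was subtracted, so that a probe at 0 is brighter than most and background lies near the lowest values given. Probes well above background made up 68.7% and 72.6% in sa and 60.9% to 69.1% in control. The 2 sa arrays correlated at r = 0.968 over all tested targets, the control arrays at 0.970 to 0.992 among themselves, and sa with control at 0.853 to 0.887. The 2 topi arrays correlated at only 0.917: topi 1 gave r = 0.582 to 0.610 with control, and topi 2 gave 0.781 to 0.803. These arrays enter the shared estimate of spread, so the counts of changed targets, ND-B14.5AL and Vha100-3 are also given without them. The errors of lncRNA:Yu, Nasp, CG31867 and CG3748, given with them only, also include topi arrays that stood far apart. Probes of sa itself, and of the marker genes th, red, ru, h and ca, were not matched to a symbol, so the mutated gene was not checked in its own samples.

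In sa testes, 8243 of 19758 tested targets differed from control by limma (41.7%), at a change of 2-fold or more and a Benjamini-Hochberg adjusted p under 0.05. Of these, 5317 were higher (26.9%) and 2926 lower (14.8%). The falls were the deeper changes. Among the targets that fell, 31.7% fell at least 8-fold (928 targets), against 12.2% of those that rose (650 targets). Changes under 4-fold made up 64.3% of the rises and 41.8% of the falls. Past 32-fold there were 99 rises and 171 falls. The share of rises among changed targets was 64.5%. It was 50.5% after scaling by the median, 53.4% by spike-ins and 51.9% after normexp background correction. Without the topi arrays 5262 targets were higher and 3518 lower, a share of rises of 59.9%. The median change of all targets was 0.43 on the log2 scale and 0.15 with median scaling, so single changes are best read against that shift. Because whole testes were pooled, fewer cells of a type and less RNA per cell cannot be told apart.

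**Figure D1:**
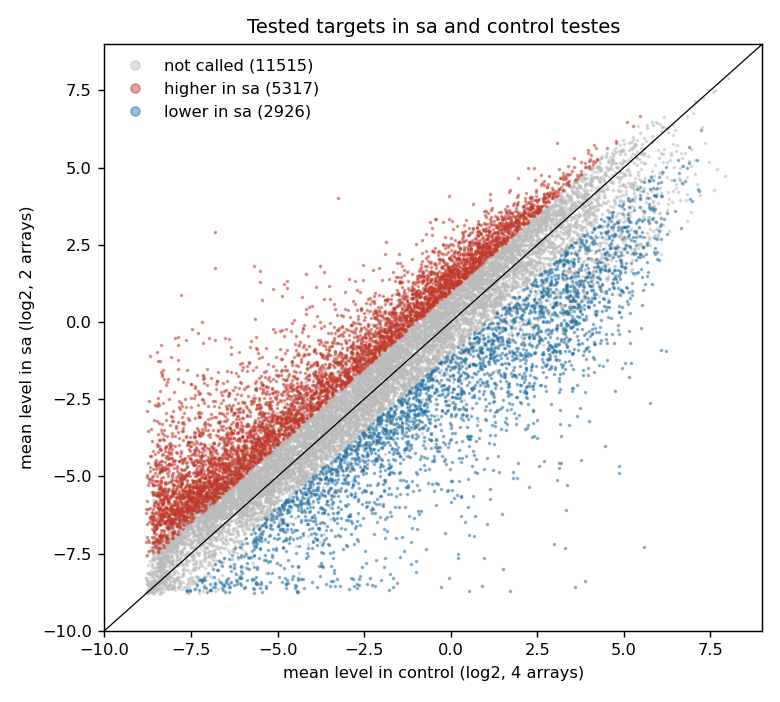
Mean level of each tested target in sa (vertical axis, 2 arrays) against control (horizontal axis, 4 arrays), both as log2 signal minus the array's 75th percentile, with equality as a line. Of the 5317 targets higher in sa, 64.3% lie less than 4-fold above the line. Of the 2926 lower ones, 41.8% lie less than 4-fold below it and 31.7% at least 8-fold below it.

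A symbol could be given to 360 of the tested targets, and 133 of them (36.9%) passed: 70 higher (19.4%) and 63 lower (17.5%). Symbols that are more than an annotation number numbered 179, of which 33 were higher and 19 lower. Both sa arrays lay above every control array for 39.8% of all tested targets and below every control array for 23.6%, 63.4% in all without overlap. Among called targets this held for 98.6% of rises and 99.5% of falls, so a lack of overlap adds little to a call.

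Among genes for building the sperm, transcripts of Hsc70-1, f-cup and ND-B14.5AL fell. Hsc70-1, a heat shock cognate chaperone gene, stood at -4.24 and -4.86 in sa, against 2.33, 1.63, 2.07 and 1.78 in control. Both sa arrays lay far below all control arrays, yet remained above background. The change was -6.51 (SE 0.37, adjusted p = 8.05e-07), or 90.9-fold. It was -6.57 between the arrays of slide 1 and -6.94 between those of slide 3, the 2 slides that held both groups.

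The cup gene f-cup, transcribed late in spermatid development, stood at 2.12 and 2.43 in sa, against 4.74, 5.03, 4.93 and 4.99 in control. The groups did not overlap, and f-cup was still bright in sa. The change was -2.65 (SE 0.22, adjusted p = 9.01e-06), or 6.26-fold. Of the other tested comet and cup genes, soti, which acts in spermatid individualization, stood at -4.38 and -4.98 in sa and between -5.20 and -4.68 in control. These overlapped, with a change of 0.26 (SE 0.25, adjusted p = 0.401). hale stood at -2.67 and -6.36 in sa and at -0.91, -4.57, -4.34 and -3.93 in control. On both sides the array of slide 1 was the highest, and the change of -1.08 (SE 1.53, adjusted p = 0.576) became -1.91 (adjusted p = 4.29e-05) with the slide as a term. In all, 1 of the 3 tested comet and cup genes was lower and none higher, against 14.8% and 26.9% of all targets.

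ND-B14.5AL, a paralogue of a complex I subunit gene, stood at 1.01 and 0.87 in sa, against 4.32, 4.29, 4.68 and 4.68 in control. The sa arrays lay close together and well below control. The change of -3.56 had a wide error (SE 1.08, adjusted p = 0.0192), and its call ended without sa replicate 1 (adjusted p = 0.0782) or 2 (adjusted p = 0.0937). Without the topi arrays, which stood at -5.34 and 0.24, the same change had an adjusted p of 2.38e-06.

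Vha100-3, a subunit gene of the vacuolar proton pump, showed the same arrangement. It stood at 2.03 and 2.43 in sa, against 4.17, 4.61, 4.49 and 4.40 in control, without overlap. The change of -2.19 (SE 1.30) was not called (adjusted p = 0.182), but without the topi arrays, at -6.0 and 0.74, its adjusted p was 4.4e-05. Of 5 tested spermatid structure genes, 2 were lower (Hsc70-1 and ND-B14.5AL), 2 were higher (Tim17a2 and Prosbeta4R2, below) and 1 was not called, with a median of -2.19 against 0.43 for all targets. By the same rule 14.8% of all targets were lower and 26.9% higher.

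Genes of other roles fell as well. Nasp, a histone chaperone gene, stood at -2.73 and -3.03 in sa, against -0.15, -0.28, -0.31 and -0.21 in control. The control arrays differed by little and the sa arrays lay far below them, a change of -2.64 (SE 0.58, adjusted p = 0.00347). lncRNA:Yu, a long noncoding RNA, stood at -1.42 and -1.88 in sa, against 1.78, 1.36, 1.63 and 1.34 in control. The groups were clearly apart, and the change was -3.18 (SE 0.86, adjusted p = 0.0112). That call ended without sa replicate 2 (-2.95, adjusted p = 0.0775).

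grh (grainy head), a transcription factor gene of epithelia, and Trpml, an endolysosomal cation channel gene, lay above background on all 4 control arrays and on neither sa array. grh stood at -8.02 and -8.80 in sa, against -4.59, -4.15, -3.29 and -3.95 in control, and was at least 8.48-fold lower (adjusted p = 1.91e-05). Trpml stood at -7.01 and -6.69 in sa, against -4.38, -3.95, -3.86 and -3.97 in control, and was at least 6.60-fold lower (adjusted p = 6.27e-06). An "at least" fold sets the brighter group against the lowest level that counted as above background on the arrays of the dimmer group, or against the probe's own level where that was higher. It rests on the background correction of the scanner software.

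puf, a ubiquitin-specific protease gene, stood at -3.05 and -3.01 in sa, against -1.11, -0.85, -0.81 and -1.02 in control. Each group was tight and the change was -2.08 (SE 0.21, adjusted p = 2.73e-05). The stress granule gene rin stood at -3.33 and -3.44 in sa, against -1.36, -1.01, -1.32 and -2.51 in control. Control 4 was the lowest control array, yet above both sa arrays, and the change was -1.84 (adjusted p = 0.00253; -1.89 and 0.0703 with spike-in scaling).

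Smaller falls, between -1.77 and -1.11, were found for the sorting nexin gene Snx27 (-1.77), the nuclear receptor gene eg (-1.39), the calcium-activated potassium channel gene SK (-1.32), the RNA polymerase II subunit gene Polr2F (-1.17) and the gustatory receptor-like gene Grl40a (-1.11). The homeobox gene otp, below background in sa, was at least 2.44-fold lower. The calls of all 6 ended when 1 array was left out and under spike-in scaling, and all but that of Polr2F also ended with normexp background correction. Snx27 gave -1.08 without sa replicate 1 and -2.46 without sa replicate 2.

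**Figure D2:**
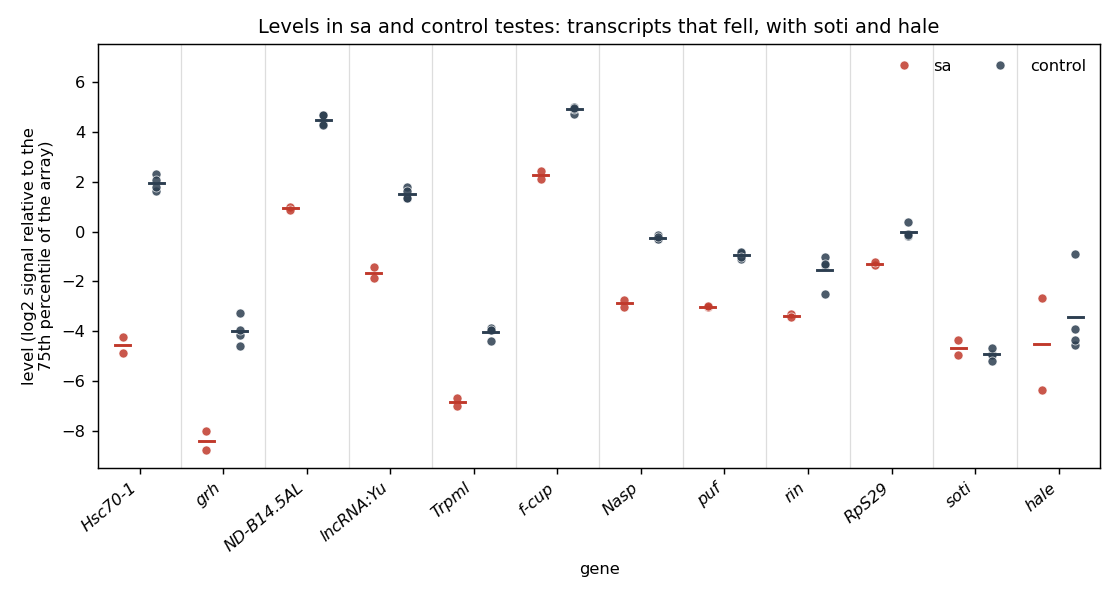
Levels of 10 transcripts that fell in sa and of soti and hale, which were not called, with sa left and control right for each gene. Each point is an array and each bar a group mean, in log2 signal minus the array's 75th percentile; Hsc70-1 shows the widest gap, and the points of soti and hale overlap.

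Among named genes, leaving aside symbols that are annotation numbers, the largest rises were those of Pa1, which encodes a partner of histone methyltransferase complexes, and of channel genes that control testes did not show above background. Pa1 stood at -2.78 and -3.38 in sa, against -5.46, -7.41, -8.37 and -7.77 in control. The sa arrays lay above all control arrays, of which control 1 was the highest and 2 were above background. The change was 4.17 (SE 0.67, adjusted p = 0.00054), with 3.80 without control replicate 3 and 4.77 without control replicate 1.

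nAChRalpha6, a nicotinic acetylcholine receptor subunit gene, stood at -4.68 and -4.54 in sa, against -7.49, -7.59, -8.67 and -8.20 in control. It was above background on both sa arrays and on no control array, at least 5.30-fold higher (adjusted p = 1.62e-05). Sh, which encodes the Shaker potassium channel, stood at -5.05 and -3.45 in sa, against -6.93, -7.25, -7.30 and -8.23 in control. Its sa arrays differed by more than those of nAChRalpha6, and the rise was at least 6.41-fold (adjusted p = 0.000916). Leaving out sa replicate 1 gave a fitted change of 3.97 for Sh, and leaving out sa replicate 2 gave 2.37. With normexp background correction the changes of nAChRalpha6 (0.80) and Sh (0.84) did not reach 2-fold. Of 5 tested neuronal channel and chemoreceptor genes, 2 were higher and 1 lower (Grl40a), against 26.9% and 14.8% of all targets. The receptor genes Ir7b (0.99, adjusted p = 0.167) and ppk27 (0.52, adjusted p = 0.574) were not called.

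Prosbeta4R2, a testis-specific relative of a proteasome subunit gene, stood at -5.68 and -6.68 in sa, against -8.01, -9.40, -9.02 and -8.72 in control. It was above background in sa alone and at least 1.81-fold higher (adjusted p = 0.00156), a small bound because sa itself was dim. Its change with normexp background correction was 0.58 and was not called. Of 3 tested ubiquitin and proteasome genes, 1 rose, 1 fell (puf) and Usp47 was not called (0.16, adjusted p = 0.74). Among all targets 26.9% rose and 14.8% fell.

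Mitochondrial genes included 3 rises and 1 fall (ND-B14.5AL) among 12 tested, with a median of 0.63. For all targets the shares were 26.9% and 14.8%, and the median was 0.43. ND-39, a complex I subunit gene, stood at 3.46 and 2.41 in sa, against 1.81, -0.10, -1.03 and 1.01 in control. The control arrays were widely spread, and the change of 2.52 (SE 0.84, adjusted p = 0.0288) lost its call without either sa array, without control replicate 2 or without control replicate 3. mRpL52, a mitochondrial ribosomal protein gene, stood at 2.53 and 1.83 in sa, against 0.18, -0.02, -0.31 and 0.33 in control. These groups were well apart, with a change of 2.13 (SE 0.33, adjusted p = 0.000442). Tim17a2, of the inner membrane import machinery, stood at -1.33 and -1.40 in sa, against -3.03, -3.20, -2.98 and -3.56 in control. Again no array overlapped, and the change was 1.83 (SE 0.22, adjusted p = 9.81e-05). The other 8, among them UQCR-C2 (0.30), ND-B17.2 (-0.04) and mRpL9 (0.65), did not pass the 2-fold rule.

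The 2 tested RNA polymerase II subunit genes moved apart. Polr2J stood at 1.70 and 1.34 in sa, against -0.30, -0.56, -0.29 and -0.37 in control, a change of 1.90 (adjusted p = 4.94e-05). Polr2F stood at 3.61 and 4.00 in sa, against 4.99, 4.81, 5.44 and 4.69 in control, a change of -1.17 (adjusted p = 0.00348). Each pair of groups was free of overlap, in opposite order. Polr2F gave -0.41 with quantile normalization and was not called (adjusted p = 0.183).

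Among ribosomal protein genes, RpS29 stood at -1.34 and -1.24 in sa, against -0.18, -0.10, 0.37 and -0.14 in control, lower in sa by every array (-1.28, adjusted p = 0.00135). RpL18 (0.62), RpS3A (0.86) and RpS7 (-0.34) were not called. Among translation factors eIF3l rose (1.62, SE 0.19, adjusted p = 6.45e-05), while eIF3g1 gave 0.97 (adjusted p = 0.0026) and so missed the 2-fold minimum, and Sbp2 gave 1.12 with a wide error (adjusted p = 0.133). Spike-in scaling ended the calls of RpS29 and eIF3l.

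All 4 tested chaperone genes were called, Hsc70-1 and Nasp lower and Cyp1 and bic higher. With 41.7% of all targets called, 4 genes that moved both ways say little about the class. Cyp1, a cyclophilin gene, stood at -4.40 and -4.53 in sa, against -5.81, -5.89, -6.38 and -6.53 in control (1.68, adjusted p = 0.0041), but gave 0.65 with normexp background correction, short of 2-fold. bic, of the nascent polypeptide-associated complex, was not above background on any array of either group, so no fold is given. It entered the test through aly and topi, where every array was above background.

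Uhg5, a host gene of small nucleolar RNAs, stood at -0.48 on both sa arrays, against -2.59, -2.74, -2.81 and -3.02 in control. It was a tight and complete separation (2.31, SE 0.24, adjusted p = 3.56e-05). Cpr60D, a cuticular protein gene, stood at -2.02 and -1.27 in sa, against -3.92, -3.60, -3.66 and -3.74 in control (2.09, adjusted p = 0.000118). slp1, a fork head transcription factor gene of embryonic segmentation, stood at -2.46 and -1.92 in sa, against -4.57, -3.86, -3.85 and -3.72 in control (1.81, adjusted p = 0.00312). In all 3 the groups did not overlap, as in 63.4% of all targets. Hakai, an E3 ubiquitin ligase gene named here after its values were seen, stood at 0.13 and 0.22 in sa, against -1.27, -1.32, -1.36 and -1.44 in control, a small change with little spread (1.52, SE 0.17, adjusted p = 4.47e-05). Further rises were Ten-m, a teneurin gene (2.02), Su(Ste):CR42418, of the repeated Suppressor of Stellate genes (1.76), and hwt (1.65). Normexp background correction took Ten-m (0.75) and hwt (0.56) below 2-fold, and spike-in scaling ended the calls of slp1, Hakai, Cyp1, Su(Ste):CR42418 and hwt with folds about as large. Copies of Suppressor of Stellate are nearly alike, and whether the probe tells them apart was not tested. Gfrl and mthl11, above background on 1 sa array each and on no control array, were at least 1.89-fold and 1.53-fold higher, and their calls ended when 1 array was left out.

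**Figure D3:**
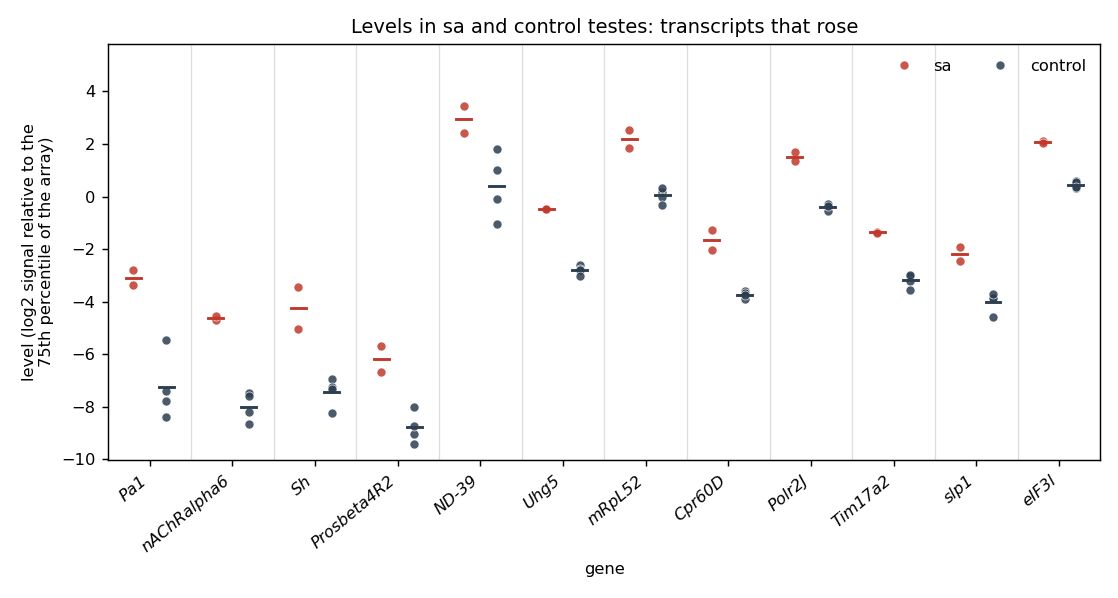
Levels of 12 transcripts that rose in sa, with sa left and control right for each gene. Each point is an array and each bar a group mean, in log2 signal minus the array's 75th percentile; nAChRalpha6, Sh and Prosbeta4R2 lie at background in control, while Pa1 and ND-39 show a wide spread among control arrays.

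Noncoding RNAs made up most of the listed genes that could be followed. The list of long noncoding and host RNAs also took in antisense RNAs and 5 pseudogenes (1 of them higher). Of its 91 tested members, 11 were higher and 20 lower, against 26.9% and 14.8% of all targets. Their changes ran from -5.81 to 6.93, with a median of -0.26 against 0.43 for all targets. Over all tested targets, 61 were classed as long noncoding RNAs. Of these, 7 were higher (11.5%) and 10 lower (16.4%), with a median of 0.02. Antisense RNAs, 27 of them, counted 4 higher (14.8%, against 26.9% of all targets) and 10 lower (37.0%, against 14.8%), with a median of -1.0. asRNA:CR43471 gave -4.12 (adjusted p = 2.43e-06), at a mean of -3.35 in sa and 0.77 in control. The transcript asRNA:CR43615 went the other way: it stood at -1.19 and -1.08 in sa, against -7.80, -7.81, -8.16 and -8.53 in control. It was above background on both sa arrays and on no control array, at least 59.5-fold higher (adjusted p = 4.13e-06). Both were named after their values were seen. Whether the probes of antisense transcripts read 1 strand alone was not tested. The dosage compensation RNAs lncRNA:roX1 (0.04, adjusted p = 0.912) and lncRNA:roX2 (0.11, adjusted p = 0.824) and the heat shock RNA lncRNA:Hsromega (-0.26, adjusted p = 0.607) were not called.

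Targets made from adult testis cDNA clones were lower in sa more often than targets overall. Of 114, 52 were lower (45.6%, against 14.8% of all targets) and 13 higher (11.4%, against 26.9%), with a median of -1.64. Of the 52 falls, 30 were at least 8-fold. The median level of these targets was -1.06 and -1.25 in sa, against 1.24, 0.44, 0.42 and 0.78 in control, and the median change was -1.70 within slide 1 and -1.71 within slide 3. Clones of other sources had positive medians: 0.76 for embryo (48 higher and 12 lower of 141), 0.64 for adult head (63 and 13 of 167) and 0.61 for ovary (15 and 2 of 49). The grouping by clone source was made after values were seen.

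Single testis clones, chosen here after their values were seen, moved far. The clone target matched to CG31867 stood at -5.07 and -5.18 in sa, against 2.79, 3.09, 3.20 and 3.13 in control, and changed by -8.18 (SE 1.15, adjusted p = 0.000226). The clone AT07608 stood at -2.88 and -6.25 in sa, against 3.26, 3.06, 3.22 and 3.17 in control, and changed by -7.74 (adjusted p = 1.03e-05). Its sa arrays were far apart, but both lay deep below a very even control. CG3748, another testis clone target, changed by -6.66 (adjusted p = 0.000804), at -4.90 and -4.82 in sa against 1.27, 2.04, 1.84 and 2.03 in control.

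A few testis clones, chosen in the same way, rose as steeply. AT04751 stood at 1.03 and 0.73 in sa, against -6.78, -8.01, -7.82 and -8.49 in control, and rose at least 241-fold (adjusted p = 3.36e-07). CG31870 stood at 0.44 and -2.97 in sa, against -7.95, -8.16, -8.77 and -8.69 in control, and rose at least 54.4-fold (adjusted p = 2.53e-05). Both gave a plain signal on each sa array and were at background on every control array, though the sa arrays of CG31870 were unequal: its change was 8.83 with sa replicate 2 left out and 5.42 with sa replicate 1 left out. AT26853 stood at 2.66 and 0.95 in sa, against -3.96, -5.87, -5.55 and -7.32 in control (7.48, adjusted p = 8.93e-05).

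**Figure D4:**
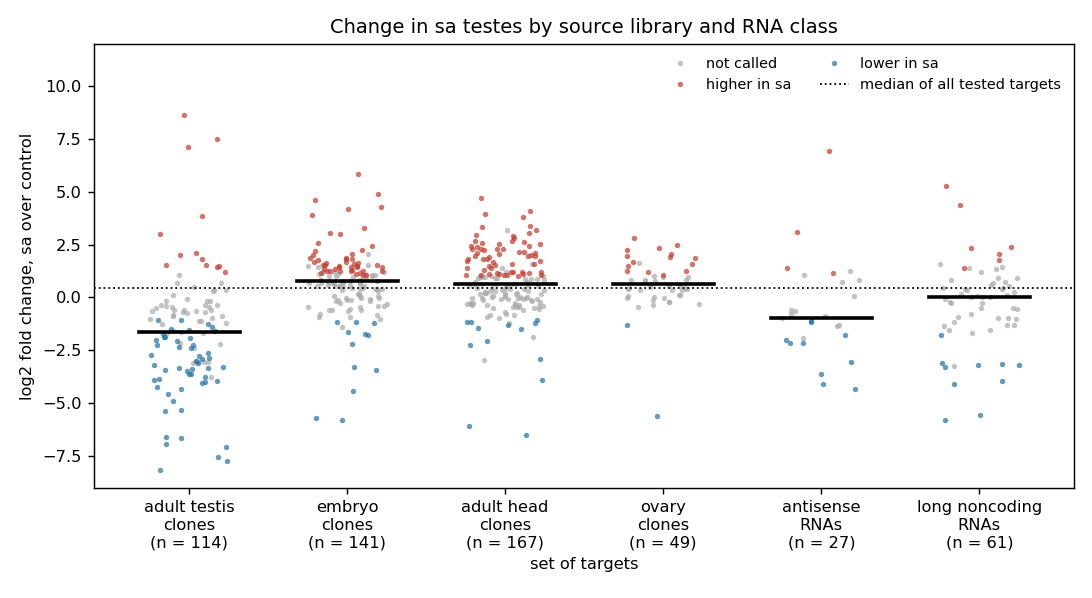
Log2 fold change of sa over control for targets grouped by the source library of their cDNA clone or by RNA class, with each point a target, each bar the median of its set and the dotted line the median of all tested targets (0.43). The adult testis clones (median -1.64) and antisense RNAs (median -1.0) sit below that line, and the embryo, adult head and ovary clones sit above it.

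Above background on every sa array and on no control array, and higher by the fit, were 692 targets. Their median rise was at least 3.77-fold, and 19 had a symbol, led by asRNA:CR43615, CG31870, CG6000 (at least 21.0-fold) and CG9672 (at least 20.6-fold). The reverse, above background on every control array and on no sa array, held for 195 targets, with a median fall of at least 7.05-fold. The 5 with a symbol were grh, Trpml, lncRNA:CR33948 (at least 21.8-fold lower), lncRNA:CR43372 (at least 7.62-fold) and CG31093 (at least 7.09-fold). These sets were chosen by the same arrays, so their folds describe them only. Among the 19758 tested targets, 2164 were above background on no control array, and these entered the test through another group. Of the 692, 356 were also above background on both aly arrays and 226 on neither, and 323 were above it on both topi arrays. Of the 195, 134 were below background on both aly arrays and 31 above it on both, and 142 were below it on both topi arrays. The same shares over all targets were not counted, so these counts do not measure how alike the mutants are. The first count was 310 with normexp background correction, and the second was 293 without sa replicate 2.

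Markers of the other cells of the testis gave few values. For the somatic cyst and hub cells, 3 of 13 listed markers were tested. eya, a cyst cell transcription factor gene, gave 0.15 (adjusted p = 0.615), the Hedgehog receptor gene ptc -0.44 (adjusted p = 0.499) and the phosphatase gene puc -0.30 (adjusted p = 0.774), and their sa and control arrays overlapped. Separate probes of ptc differed in sign (-0.44, -0.77 and 1.33) and those of eya in size (1.09 and 0.15), and none was called. The ptc probe used was above background on 2 control arrays and on no sa array. No marker of early germline, muscle, fat body or blood cells was matched, and Dup99B, of the male ejaculatory duct, was above background on no sa or control array. Gen, a Holliday junction nuclease gene and the 1 tested gene of the meiotic list, gave 0.32 (adjusted p = 0.713). Digestive enzyme genes (0 of 3 called) and detoxification genes (0 of 2 called) gave no call either, against 41.7% of all targets called. So few genes say little about these classes.

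Testes mutant for sa were then set against aly and topi, to ask where the loss of a testis TAF and of tMAC subunits differ. This contrast uses the control arrays only for the spread. Differences from a group at background are fitted values that rest on the background correction, and they are no bounds. Against the mean of aly and topi, 3575 targets were higher in sa (18.1%) and 3784 lower (19.2%), 37.2% in all. Against aly alone, 3300 were higher (16.7%) and 3222 lower (16.3%), 33% in all.

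ND-B14.5AL stood at 1.01 and 0.87 in sa, against -6.10 and -6.77 in aly and -5.34 and 0.24 in topi. It was above background on no aly array, and sa was higher than aly by 7.37 (SE 1.25, adjusted p = 0.00116). The sa level exceeded the mean of aly and topi by 5.43 (adjusted p = 0.00238), though topi 2 lay close to sa. lncRNA:Yu stood at -1.42 and -1.88 in sa, against -8.16 and -8.31 in aly and -8.12 and -3.72 in topi, a difference from aly of 6.59 (adjusted p = 0.000595). Nasp stood at -2.73 and -3.03 in sa, against -8.11 and -8.30 in aly and -8.04 and -5.14 in topi, a difference from aly of 5.32 (adjusted p = 0.000192). Vha100-3 stood at 2.03 and 2.43 in sa, against -3.83 and -3.52 in aly and -6.0 and 0.74 in topi, a difference from aly of 5.90 (adjusted p = 0.0105). All 4 thus had sa levels between those of aly and of control. In each, topi 2 lay nearer to sa than topi 1 did.

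The testis clones as a set showed the same order. Their median against aly was 1.57, with 53 of 114 higher in sa and 7 lower, and antisense RNAs had a median of 2.00, with 14 of 27 higher and 2 lower. Over all tested targets the median against aly was -0.32, with 16.7% higher and 16.3% lower. Hsc70-1 (-0.76, adjusted p = 0.193), grh (-0.40, adjusted p = 0.556), puf (-0.20, adjusted p = 0.552) and rin (0.11, adjusted p = 0.864) were not called against aly. For f-cup sa was below aly by 0.85 (adjusted p = 0.0241), short of 2-fold. RpS29 was higher in sa than in aly (1.26, adjusted p = 0.00454).

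Some transcripts stood above both other mutants and control in sa. slp1 averaged -2.19 in sa, -4.48 in aly, -4.93 in topi and -4.00 in control, and exceeded aly by 2.29 (adjusted p = 0.0026). Cpr60D averaged -1.65 in sa, -3.12 in aly, -5.89 in topi and -3.73 in control, and exceeded aly by 1.47 (adjusted p = 0.00352). Sh and Prosbeta4R2 were above background on no aly or topi array and exceeded aly by 2.26 and 2.29 (adjusted p = 0.0177 and 0.00963). Normexp background correction ended their calls against the mean of aly and topi. AT04751 stood at -7.72 and -7.65 in aly and CG31870 at -8.31 and -8.51, and sa was higher by 8.57 and 7.14 (adjusted p = 1.39e-06 and 0.000108). AT26853, at 2.85 and 1.28 in aly, did not pass (-0.26, adjusted p = 0.871).

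Other transcripts were lower in sa than in aly and topi. Art7, an arginine methyltransferase gene, stood at -7.11 and -8.64 in sa, against -1.13 and -2.16 in aly, 1.23 and 0.14 in topi and -7.29 to -8.67 in control. It was at background in sa and control and above background on every aly and topi array. The difference of sa from the mean of aly and topi was -7.40 (adjusted p = 9.66e-06). atos stood at -7.89 and -7.16 in sa, against -4.12 and -3.65 in aly, a difference from aly of -3.64 (adjusted p = 0.00064). nAChRalpha6, raised in sa over control, was still lower in sa than in aly, by a difference of -1.98 (adjusted p = 0.00166). wuc, which encodes a partner of tMAC, stood at 1.02 and 1.39 in sa, 2.56 and 3.00 in aly and 0.22 to 0.81 in control, and gave -1.57 against aly (adjusted p = 0.00384) and 0.66 against control (adjusted p = 0.079). LysE, a lysozyme gene, differed from the mean of aly and topi (-3.40) but not from aly (-0.82, adjusted p = 0.139).

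**Figure D5:**
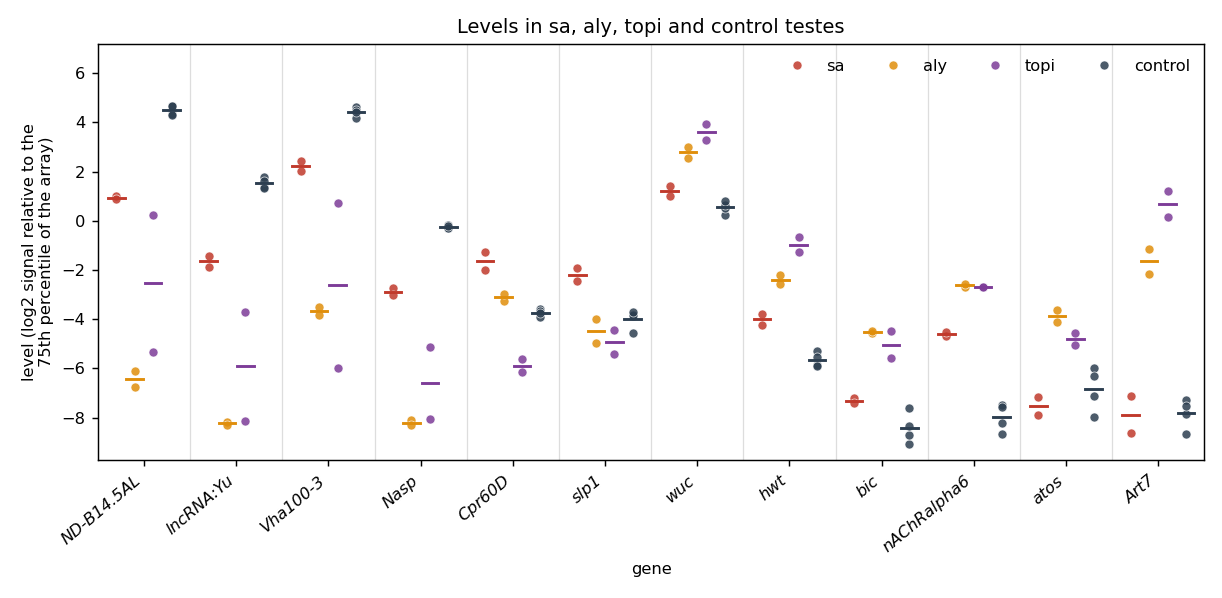
Levels of 12 genes in sa, aly, topi and control, from left to right for each gene, with each point an array and each bar a group mean, in log2 signal minus the array's 75th percentile. ND-B14.5AL, lncRNA:Yu, Vha100-3 and Nasp show sa between aly and control, slp1 and Cpr60D are highest in sa, and Art7 lies at background in sa and control alone; the topi points are far apart in the first 4 genes.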

How the data were processed

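Total RNA of pooled testes was hybridised to 13 Agilent arrays with 1 colour. Per the file headers, the authors used Agilent Feature Extraction 10.7.3.1 to read them. For each spot the deposited scanner files give intensity on a linear scale, as a raw median signal and as a processed signal (detrended and with background subtracted), and other columns of quality flags. The deposited series table holds log2 values with medians of 7.89 to 7.90 per array, whose normalization is not given in the sources used here, and served as an alternative. All arrays have 45019 spots, 1417 of them controls. 51 to 113 spots per array carried an outlier flag, and no spot was saturated. Flagged spots were left out unless every spot of the probe on that array was flagged, in which case they were kept.

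Spots of a probe were averaged (32162 probes of 25796 targets). The level is log2 of the processed signal less the array's 75th percentile. Tested targets had a probe well above background on all arrays of 1 group or more, and the brightest such probe stood for the target. A linear model of group means over the 13 arrays (limma 3.58.1 in R 4.3.3, with 8 degrees of freedom from residuals and 2.42 from the prior) gave two-sided p-values, adjusted over 19758 targets. The number of arrays limits the precision (median SE 0.347). On simulated data 65.4% of 4-fold and 80.2% of 8-fold changes were recovered for sa against control. There only 200 of 19758 targets changed and noise was independent between arrays. In the data 41.7% of targets were called and residuals of arrays on the same slide correlated (median r = 0.55). The simulated shares therefore do not give the recovery in the data. RefSeq accessions (393 probes) and synonyms (153 probes) gave symbols to 466 genes. No sequence or position is given, since no genome was used and the builds of the array and the gene table differ.

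Named genes, passing over symbols that are bare annotation numbers, were the 12 largest rises and falls among targets seen above background in both sa and control, 6 each way by at-least fold, called members of 26 gene lists (up to 4 by level where none was called) and the 6 largest differences each way from aly and topi. Genes outside this rule were named after their values were seen. Some genes within the rule are not reported here. Members, lists and tests were chosen with earlier results of these data known.

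Slide 1 held control 1, sa 1, aly 1 and dany 1, slide 2 control 2, aly 2 and topi 1, slide 3 control 3, sa 2, topi 2 and dany 2, and slide 4 control 4 and dany 3. Alternatives were other scalings, normexp background correction on the raw median signal (offset 50), other probe filters, the slide, scan day or replicate number as a term, sa and control arrays alone, and each array left out.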

Additional observations from a re-analysis of the deposited data

Results flagged for a closer look

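In 3 of the 50 named genes checked, 1 control array stood apart from the other 3 by a gap, as a share of the group's range, above Dixon's critical value. Chance alone flags about 1 group in 20. For slp1, control replicate 1 was the lowest at -4.57, against -3.86 to -3.72 in the others. For RpS29, control replicate 3 was the highest at 0.37, against -0.18 to -0.10. For Cyp9c1, a cytochrome P450 gene that was not called (-0.04, adjusted p = 0.975), control replicate 1 was the highest at -3.17, against -4.66 to -4.64, and its sa replicate 1, from the same slide, stood at -3.45, against -5.19 for sa replicate 2.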

How the results depend on the processing

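Spike-in scaling left 4019 changed targets (2147 higher and 1872 lower), 24 of the 43 called named genes and 3565 targets differing from the mean of aly and topi. Normexp background correction left 3078 higher targets, 310 newly detected and 28 named genes, and turned bic, at background in both groups, to -0.016 (adjusted p = 0.962). Leaving out 1 array gave 6374 to 8608 changed targets, 3907 to 5692 higher, 2233 to 2916 lower, 605 to 846 newly detected, 194 to 293 no longer detected, 32 to 42 named genes, 47 to 60 list genes, and 5325 to 7782 against aly and topi. The slide as a term gave 9011 changed targets, with 7831 of the 8243 called alike. Fits without the topi arrays (8780) and of slides 1 and 3 alone (6931) were added after seeing the data. Replicate numbers do not pair samples in the labels. Residuals of control and sa correlated at 0.604 for number 1 (same slide), 0.476 for number 2 (other slides) and 0.552 for control 3 with sa 2 (same slide). With the replicate number as a block, 8001 targets were changed (5254 higher, 2747 lower), 37 named genes were called, 625 targets were newly and 197 no longer detected, and 7701 differed from aly and topi; ND-B14.5AL lost its call (-3.41, adjusted p = 0.0624). The cause of these shifts was not tested. Probes near background, with 2 arrays of sa, limit what can be measured.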
